A study of Mus musculus with 13 samples.

Results

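The sirtuin family of the mouse has 7 genes, Sirt1 to Sirt7, which were taken by symbol, and all 7 were found among the 57010 genes listed for these cells and passed the filter on low counts that left 15034 genes for testing. Their RNA was measured in wild-type (WT) mouse embryonic fibroblasts (MEFs) in 4 groups. Control MEFs were WT cells labelled untreated, which by the study's account received vehicle in place of etoposide. Senescent MEFs were WT cells given 2 µM etoposide, a topoisomerase inhibitor that breaks DNA, for 24 h and cultured for 5 more days, with no further treatment. The other groups were etoposide-treated senescent WT MEFs given Fucoidan-FV, a sulfated sugar polymer from the seaweed Fucus vesiculosus, at 100 µg/mL or 300 µg/mL for 12 h. Cells of all groups were grown at 3% oxygen, and no cells lacking a sirtuin were sequenced. Each group held mice 4, 5 and 6, and control mouse 5 had libraries 5(1) and 5(2), which were summed, so 13 libraries gave 3 samples per group. The labels do not say whether a mouse number stands for 1 embryo or several.

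Sirtuins are enzymes that consume NAD+ to remove acetyl and other acyl groups from proteins, and some of them also transfer ADP-ribose. They differ in their place in the cell. SIRT1, SIRT6 and SIRT7 act mainly in the nucleus, SIRT2 acts mainly in the cytoplasm, and SIRT3, SIRT4 and SIRT5 act in mitochondria. SIRT6 takes part in DNA repair and telomere maintenance, and the study asked whether fucoidans act on senescent cells through it. The study reported no significant change of SIRT6 expression in its RNA-seq. It then measured enzyme activity and used SIRT6 knockdown and knockout cells. RNA levels do not measure that activity, and the RNA of Sirt6 and of its relatives is what is described here.

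Library totals ran from 22782536 to 31278750 counts, and the members had between 36 counts (Sirt4, control mouse 6) and 3516 counts (Sirt2, senescent mouse 6) per library. The summed TPM (RSEM's level per transcript length, scaled to a fixed total in each library) of 8 fibroblast markers was 9910 to 14800, against at most 16.2 for 7 macrophage, 6.52 for 5 endothelial and 2.05 for 5 epithelial markers. The skeletal muscle list of 6 genes, of which Ckm was at 0 in control, Myog in senescent and Myod1 and Ckm in 100 µg/mL samples, summed to 202 to 277 TPM in control, 243 to 315 in senescent, 134 to 210 in 100 µg/mL and 121 to 185 TPM in 300 µg/mL samples. A neural list of 5 genes summed to 46.5 to 88.4 TPM in control, 43.7 to 47.8 in senescent, 66.3 to 117 in 100 µg/mL and 67.9 to 97.3 TPM in 300 µg/mL samples, so every treated sample lay above every senescent one. Of that list Rbfox3 and Snap25 were at 0 in control samples, both and Gfap in senescent samples and Snap25 in 100 µg/mL samples. The endothelial list also lay above the senescent samples at 100 µg/mL, with 2.81 to 6.52 against 0.41 to 2.05 TPM. The TPM of all tested genes shifted up against senescent samples too, by a median log2 difference of 0.342 at 100 µg/mL and 0.26 at 300 µg/mL. The part of these lists in the results was not tested. In bulk RNA, fewer cells expressing a gene and less RNA per cell cannot be told apart. Control libraries 5(1) and 5(2) bear the same mouse number, and the labels do not say what sets them apart. They differed, with Sirt1 at 33.9 and 15.4, Sirt3 at 8.85 and 4.64 and Sirt5 at 2.46 and 4.70 CPM of the library total (counts scaled to a fixed library total), while Sirt2 was at 70.8 and 68.0 CPM.

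The genes lie at separate places of the genome, given here in GRCm39 coordinates. Sirt1 (ENSMUSG00000020063) is at chr10:63154581-63217483 on the minus strand and Sirt6 (ENSMUSG00000034748) at chr10:81455262-81463631 on the minus strand. Sirt2 (ENSMUSG00000015149) is at chr7:28466160-28488090 on the plus strand and Sirt3 (ENSMUSG00000025486) at chr7:140443577-140462311 on the minus strand. Sirt4 (ENSMUSG00000029524) is at chr5:115616065-115622784 and Sirt7 (ENSMUSG00000025138) at chr11:120509197-120516066, both on the minus strand, and Sirt5 (ENSMUSG00000054021) is at chr13:43518856-43550487 on the plus strand. Counts covered all exons of a gene, untranslated parts included, with 4 transcripts for Sirt6 and up to 11 for Sirt5 and Sirt7. Exons on the opposite strand, of Ric8a and Psmd13, cover 13.1% of the exonic bases of Sirt3. Its expected count was not a whole number (by more than 0.001) in 11 of 13 libraries, and whether this comes from that overlap was not tested. The other members had whole counts in every library, also Sirt7, where exons of Mafg and Mir6936 on the same strand cover 3.48% of the exonic bases. Gm57298 covers 9.7% of the exonic bases of Sirt4 on the opposite strand, and how strand was handled in counting is not given in the sources used here.

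RefSeq promoter sequences (build GRCm38.p6, 250 bases before and 50 after a start) were matched for all 7 members, with 9 sequences. Those of Sirt2, Sirt4 and Sirt5, whose levels were most alike over the samples, are shown 5′ to 3′ along the gene's strand. Capitals mark matches on either strand to a ZNF143-type motif that was chosen after the sequences were read, GGGA and TGTAGT with 2 bases of any kind between them. Sirt2 is chr7:28766502-28766801 (plus strand), Sirt4 is chr5:115484248-115484547 (minus strand) and Sirt5 is chr13:43365285-43365584 (plus strand).
Sirt2: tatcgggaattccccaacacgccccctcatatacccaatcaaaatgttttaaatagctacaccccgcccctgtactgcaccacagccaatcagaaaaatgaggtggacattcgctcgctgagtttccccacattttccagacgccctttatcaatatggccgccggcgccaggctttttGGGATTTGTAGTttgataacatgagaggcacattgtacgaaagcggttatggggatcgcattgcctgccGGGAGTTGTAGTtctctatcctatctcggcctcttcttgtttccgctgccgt
Sirt4: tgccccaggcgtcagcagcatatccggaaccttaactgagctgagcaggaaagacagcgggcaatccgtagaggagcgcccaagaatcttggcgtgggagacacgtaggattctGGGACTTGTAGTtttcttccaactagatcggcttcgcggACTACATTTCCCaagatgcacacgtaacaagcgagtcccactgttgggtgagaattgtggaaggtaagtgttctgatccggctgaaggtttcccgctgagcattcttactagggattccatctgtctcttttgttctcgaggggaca
Sirt5: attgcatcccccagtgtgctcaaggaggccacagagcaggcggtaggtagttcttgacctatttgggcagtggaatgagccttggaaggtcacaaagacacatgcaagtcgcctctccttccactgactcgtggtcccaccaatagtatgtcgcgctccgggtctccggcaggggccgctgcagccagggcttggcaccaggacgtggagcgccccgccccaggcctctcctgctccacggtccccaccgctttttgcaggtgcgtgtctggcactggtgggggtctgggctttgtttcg
Sirt2 and Sirt4 hold 2 matches each, and the promoters of the other members hold none. The matches of Sirt4 begin 136 and 97 bases before the start and those of Sirt2 71 and 2 bases before it. Of 32544 distinct promoters of the same length, 1.83% hold such a match. Of the other motifs searched on both strands, CACGTG (E-box, in 7.17% of promoters) occurs 2 times in the Sirt1 promoter, and GCGCATGCG (NRF1-type, in 1.76%) occurs in an upstream Sirt6 promoter, where 2 matches on opposite strands overlap, and in the Sirt7 promoter. CCGGAAG (ETS-type, 8.91%) occurs in promoters of Sirt3, Sirt6 and Sirt7, GGGCGG (GC box, 35.9%) in those of every member but Sirt4, CCAAT (37.4%) in those of Sirt2, Sirt3 and Sirt5, and TATAAA (13.6%) in none of them. These matches are a description of the letters in the windows and not evidence of binding.

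Levels of different members can be compared only per length, in TPM. In control MEFs Sirt2, a deacetylase of tubulin and other cytoplasmic proteins, had the highest level of the family with 62.2 TPM, above 84.3% of the genes tested. Sirt7 (18.8 TPM), a nucleolar enzyme linked to ribosomal RNA synthesis, and Sirt6 (11.8 TPM) came next, and the values of these 3 genes did not overlap with their neighbours in the order. Sirt1 (8.57 TPM), Sirt5 (7.87 TPM), Sirt3 (7.22 TPM) and Sirt4 (5.09 TPM) followed, each overlapping with the next. Sirt4 had the lowest mean in control MEFs, at a level above 38.7% of genes, but the place of Sirt5 above it rested on control mouse 6 (13.5 TPM). Without that mouse the means were 5.45 TPM for Sirt4 and 5.06 TPM for Sirt5.
In senescent MEFs the order was Sirt2 (89.1 TPM), Sirt7 (24.9 TPM) and Sirt4 (14.7 TPM), then Sirt6 (11.6 TPM), Sirt3 (10.4 TPM) and Sirt5 (10 TPM), and Sirt1 was the lowest with 6.17 TPM. Sirt7 did not overlap with Sirt2 above it or Sirt4 below it, each of Sirt4, Sirt6 and Sirt3 overlapped with the next gene in the order, and Sirt1 lay below Sirt5 without overlap. With 300 µg/mL Fucoidan-FV, Sirt4 (22.6 TPM), Sirt5 (21.6 TPM) and Sirt7 (21.5 TPM) overlapped as the next genes after Sirt2 (106.8 TPM).

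Senescent and control MEFs were compared to see whether the family changes with etoposide-induced senescence. Sirt4 and Sirt5, which both act in mitochondria, rose, and the other 5 members did not pass the test. Of the 7 members 2 (Sirt4 and Sirt5) had an adjusted p under 0.05, both higher, where 11.7% of all 15034 genes tested passed. With the study's limit of an absolute log2 fold change over 1, Sirt4 was called, against 8.42% of genes. Adjusted p here and below comes from edgeR's quasi-likelihood test with Benjamini-Hochberg adjustment over all genes tested, unless another test is named, and CPM from here on are counts scaled to a fixed library total and by TMM factors.
Sirt4, which inhibits glutamate dehydrogenase and acts as a lipoamidase, was at 3.48, 4.28 and 1.69 CPM in control mice 4, 5 and 6. It was at 7.57, 10.2 and 9.0 CPM in the senescent samples of the same mice. Every senescent value lay above every control value, and control mouse 6, with 36 counts, was the lowest sample. The mean went from 3.15 ± 1.33 to 8.93 ± 1.32 CPM (SD, n = 3), a log2 fold change of 1.49 (adjusted p = 0.0299, SE 0.41), or 2.81-fold with a 95% interval of 1.54 to 5.15. The call held in 15 of 18 alternatives and was lost when only these groups were fitted (adjusted p = 0.109) and also without mouse 4 of the controls (adjusted p = 0.0626) or mouse 5 of the senescent group (adjusted p = 0.0598).
Sirt5, which removes succinyl, malonyl and glutaryl groups from mitochondrial proteins, was at 5.14, 3.73 and 4.84 CPM in control mice 4, 5 and 6. In senescent MEFs it was at 8.76, 7.46 and 10.8 CPM. The groups did not overlap, and senescent mouse 6 was the highest sample. Its mean rose from 4.57 ± 0.744 to 9.01 ± 1.69 CPM (SD, n = 3), a log2 fold change of 0.98 (adjusted p = 0.0421, SE 0.29), or 1.97-fold with a 95% interval of 1.28 to 3.04. With the mouse as a block the adjusted p was 0.0562, and the call held in 9 of 18 alternatives. It was lost with library 5(2) alone for control mouse 5 (0.0722), on log2 TPM (0.511), without a filter (0.212), with only these groups in the fit (0.213), and without control mouse 4 (0.0648), control mouse 5 (0.117), senescent mouse 4 (0.0768) or senescent mouse 6 (0.0519), all as adjusted p.

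**Figure D1:**
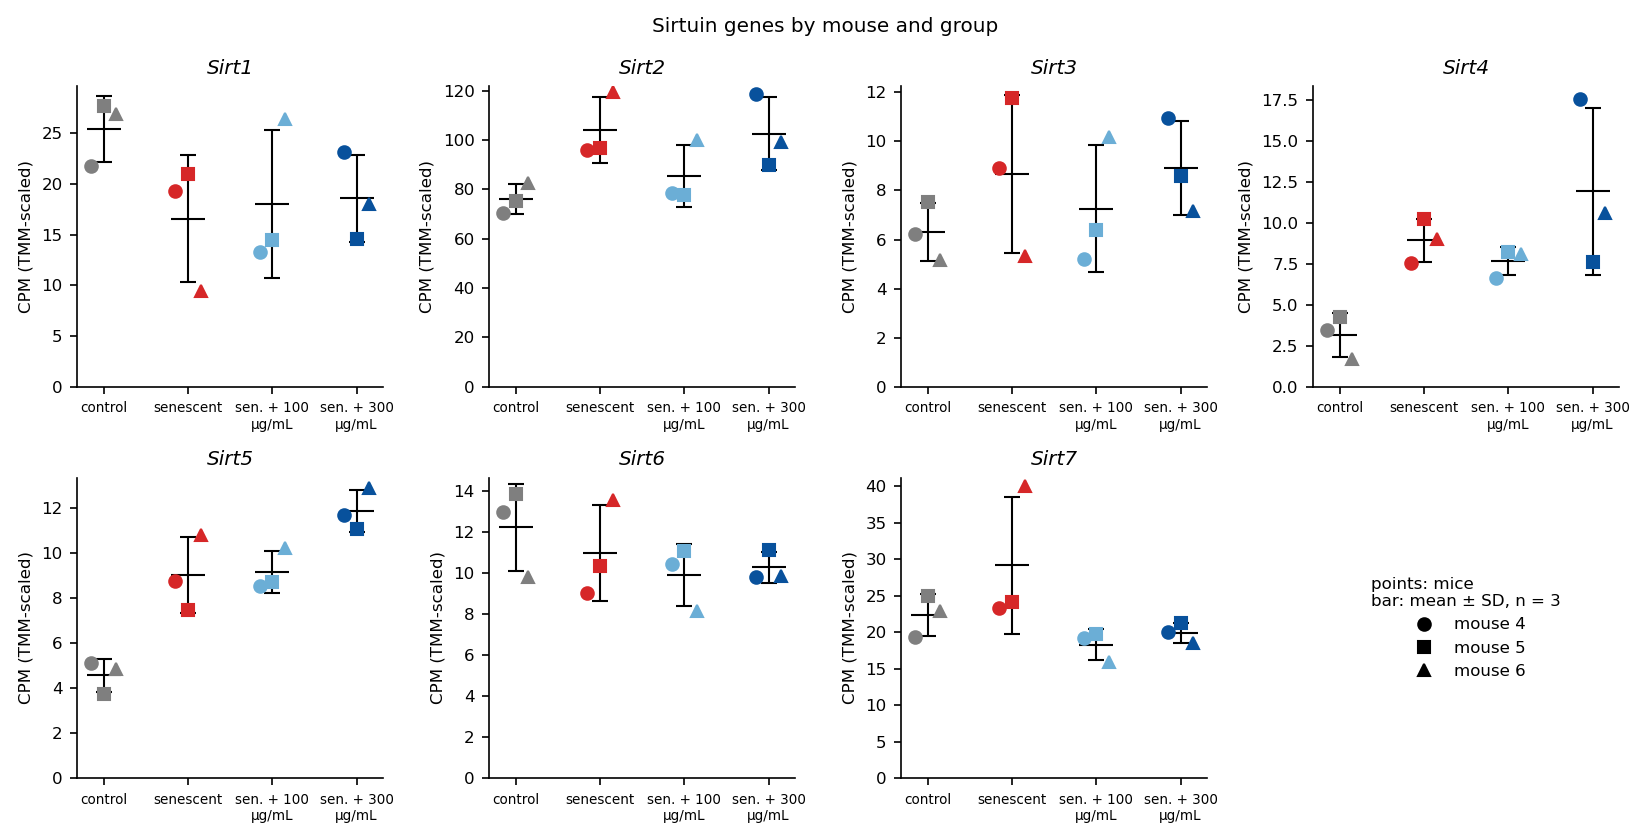
CPM of each sirtuin gene (y axis from 0, scaled by TMM factors) in the 4 groups, with each point a mouse and the bars the mean ± SD over 3 mice. The control points of Sirt4 and Sirt5 lie below all points of the other groups, and senescent mouse 6 stands apart from mice 4 and 5 in Sirt1 and Sirt7.

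Of the 5 members that did not pass, Sirt2 and Sirt1 had values that did not overlap between the groups. Sirt2 was at 70.6, 75.1 and 82.5 CPM in control and 96.0, 96.9 and 119 CPM in senescent MEFs (mice 4, 5 and 6). Its log2 fold change was 0.45 (adjusted p = 0.132, SE 0.18), and that it was higher in 3 of 3 mice follows from the lack of overlap. On log2 TPM with limma its adjusted p was 0.0141. Sirt1, a nuclear deacetylase of p53 and FOXO proteins, was at 21.7, 27.7 and 26.9 CPM in control and 19.3, 21.0 and 9.41 CPM in senescent MEFs. That it was lower in 3 of 3 mice follows from the lack of overlap here too. Senescent mouse 6 was far below the others, and the log2 fold change of Sirt1 was −0.62 (adjusted p = 0.299, SE 0.35), or −0.33 without senescent mouse 6. With offsets for single-transcript sequence, length and GC content its adjusted p was 0.0452, and 0.0667 with the same offsets and the mouse as a block. Libraries 5(1) and 5(2) of control mouse 5 differed in Sirt1 by more than the means of both groups. Library 5(2), at 15.4 CPM of the library total, lay below senescent mice 4 and 5 (19.3 and 19.0), so with it alone Sirt1 overlapped. In TPM Sirt1 overlapped as well, with control mouse 4 at 7.8 and senescent mouse 4 at 7.82. With both libraries summed, 4 of 7 members had no overlap of the groups in TMM-scaled CPM, against 27.1% of all genes tested.
Sirt6, the nuclear enzyme of DNA repair, was at 13.0, 13.9 and 9.82 CPM in control MEFs. It was at 9.01, 10.3 and 13.6 CPM in senescent MEFs. The groups overlapped, with mice 4 and 5 lower and mouse 6 higher in senescent cells. The log2 fold change was −0.16 (adjusted p = 0.797, SE 0.28), and its 95% interval of −0.75 to 0.44 leaves room for a fold of 0.593 to 1.36.
Sirt7 was at 19.3, 25 and 22.9 CPM in control and 23.3, 24.2 and 40.0 CPM in senescent MEFs, with mouse 6 the single sample above the control range. Its log2 fold change was 0.38 (adjusted p = 0.393, SE 0.25), and 0.088 without senescent mouse 6. Sirt3, the main mitochondrial deacetylase, overlapped between control (5.17 to 7.54 CPM) and senescent MEFs (5.33 to 11.8 CPM), with a log2 fold change of 0.45 (adjusted p = 0.518, SE 0.38). The median log2 fold change was 0.45 over the 7 members and 0.072 over all genes tested.

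**Figure D2:**
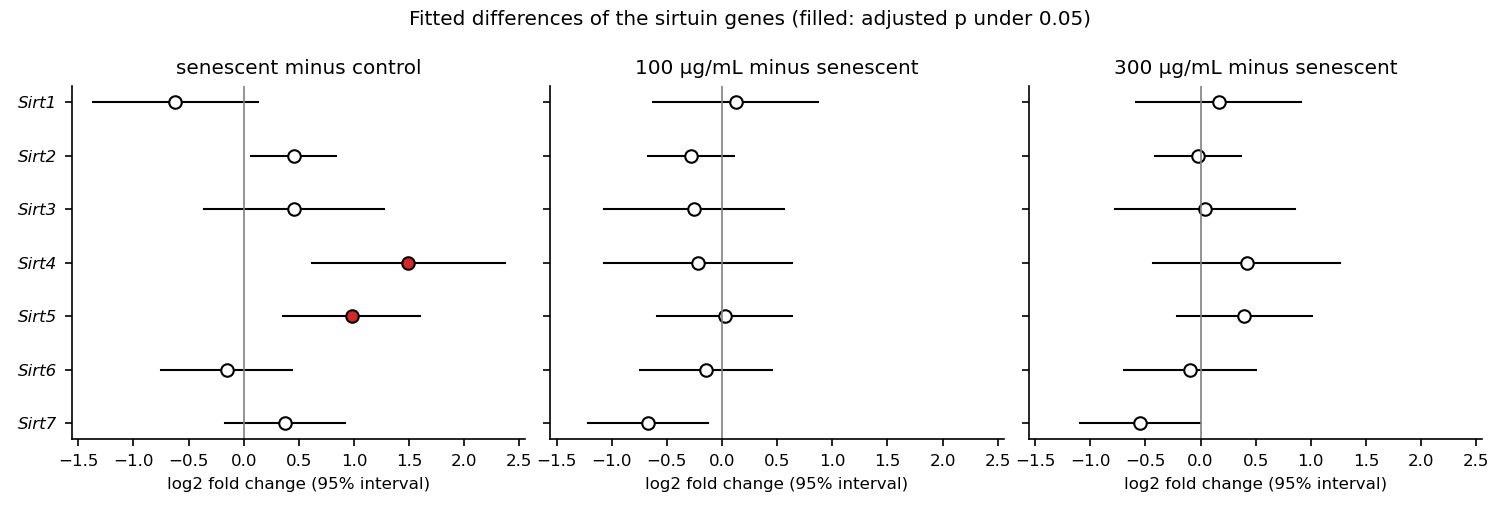
Log2 fold change of each sirtuin gene (x axis) in senescent against control MEFs and in each Fucoidan-FV group against senescent MEFs, with points from edgeR's fit and lines for the 95% interval. The filled points, Sirt4 at 1.49 and Sirt5 at 0.98, have an adjusted p under 0.05, and the intervals of Sirt6 cross 0 in all 3 comparisons.

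Each Fucoidan-FV group was compared with senescent MEFs to see whether the compound changes the RNA of the sirtuins. At 100 µg/mL edgeR called 0 of the 7 members, against 4.02% of all genes, and DESeq2 called 0. An unadjusted p under 0.05 was found for 1 member, Sirt7. At 300 µg/mL edgeR and DESeq2 likewise called 0 of 7, against 1.9% of all genes, and 1 member, again Sirt7, had an unadjusted p under 0.05. Both comparisons share the senescent samples.
Sirt6 was at 10.5, 11.1 and 8.17 CPM in mice 4, 5 and 6 at 100 µg/mL. It was at 9.81, 11.1 and 9.87 CPM at 300 µg/mL. Both sets of values lie within or just below the senescent range of 9.01 to 13.6 CPM. The log2 fold change was −0.15 (adjusted p = 0.825, SE 0.28, 95% interval −0.75 to 0.45) at 100 µg/mL and −0.095 (adjusted p = 0.921, SE 0.28, 95% interval −0.69 to 0.50) at 300 µg/mL. Over the 18 alternatives the first ran from −0.24 to 0.32 and the second from −0.15 to 0.16, so the sign was not fixed.
Sirt7 was at 19.2, 19.8 and 15.9 CPM at 100 µg/mL and at 20.0, 21.2 and 18.5 CPM at 300 µg/mL, all below the lowest senescent value of 23.3 CPM. Its log2 fold change was −0.67 (adjusted p = 0.155, SE 0.25) at 100 µg/mL and −0.55 (adjusted p = 0.322, SE 0.25) at 300 µg/mL. In TMM-scaled CPM, that it was lower in 3 of 3 mice at both doses follows from the lack of overlap. It was also lower in all 18 alternatives of each dose, which reuse the same samples. Without senescent mouse 6, the highest sample, the values were −0.21 (adjusted p = 0.647) and −0.20 (adjusted p = 0.837). The lack of overlap depended on the TMM factors. In TPM, mouse 4 (24.84) and mouse 5 (25.09) at 100 µg/mL lay above their senescent samples (22.64 and 21.68). Mouse 5 at 300 µg/mL (25.51 TPM) did so too. In CPM of the library total, values reached 23.0 at 100 µg/mL and 23.1 at 300 µg/mL, above the lowest senescent value of 21.9.
Sirt5 was at 8.55, 8.71 and 10.2 CPM at 100 µg/mL, inside the senescent range. At 300 µg/mL it was at 11.7, 11.1 and 12.9 CPM, all above the senescent maximum of 10.8 CPM. The log2 fold changes were 0.025 (adjusted p = 0.974, SE 0.28) and 0.40 (adjusted p = 0.569, SE 0.28). Without overlap in TMM-scaled CPM were thus 1 member at 100 µg/mL (Sirt7), against 26.2% of all genes, and 2 members at 300 µg/mL (Sirt5 and Sirt7), against 19.6%. In TPM, Sirt5 was at 14.84 to 17.49 at 100 µg/mL, above the senescent 8.17 to 11.31, so its overlap at that dose depended on the scale.
Sirt4 was at 6.67, 8.22 and 8.10 CPM at 100 µg/mL and at 17.6, 7.61 and 10.6 CPM at 300 µg/mL. Mouse 4 at 300 µg/mL held the highest value of all 12 samples, and the other samples lay in or near the senescent range. The log2 fold change at 300 µg/mL was 0.42 (adjusted p = 0.694, SE 0.39), and 0.028 without mouse 4 of that group.
Sirt1, Sirt2 and Sirt3 overlapped with senescent MEFs at both doses in TMM-scaled CPM. Their log2 fold changes were 0.12, −0.28 and −0.25 at 100 µg/mL and 0.16, −0.021 and 0.039 at 300 µg/mL, with the lowest adjusted p at 0.418 for Sirt2 at 100 µg/mL. In TPM, Sirt2 lay above the senescent maximum of 94.27 without overlap, at 96.01 to 103.63 at 100 µg/mL and 102.39 to 112.36 at 300 µg/mL. The TPM of all tested genes shifted up as well, by a median log2 difference of 0.342 and 0.26. Sirt1 differed in direction between mice at 100 µg/mL, with 13.2 and 14.5 CPM in mice 4 and 5 and 26.4 CPM in mouse 6. The median of the 7 members was −0.22 at 100 µg/mL and 0.039 at 300 µg/mL, beside −0.019 and 0.00026 over all genes. The former turned positive on log2 TPM (0.21) and without senescent mouse 5 (0.032).

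Each dose was also set against control MEFs, which both comparisons share. At 100 µg/mL Sirt4 (log2 fold change 1.27, adjusted p = 0.0324, SE 0.40) and Sirt5 (1.01, adjusted p = 0.0203, SE 0.29) passed, 2 of 7 members where 26.6% of genes passed, and 19.6% with the limit on the fold. Both were lost in each of the fits without a mouse of the treated group, with adjusted p of 0.0622 to 0.0927 for Sirt4 and 0.0537 to 0.0598 for Sirt5. At 300 µg/mL Sirt4 (1.91, adjusted p = 0.00426, SE 0.41) and Sirt5 (1.38, adjusted p = 0.0038, SE 0.29) passed in this fit and in 18 of 18 alternatives, where 24.4% of genes passed, and 18.0% with the limit on the fold. Sirt4 was thus 3.76-fold (95% interval 2.04 to 6.93) and Sirt5 2.60-fold (1.69 to 4.01) above control MEFs at the higher dose.
Sirt2 did not overlap with control MEFs at 300 µg/mL (118.8, 89.9 and 99.1 CPM), with a log2 fold change of 0.43 (adjusted p = 0.101, SE 0.18). It was called in 3 of 18 alternatives. Sirt1 had log2 fold changes of −0.50 at 100 µg/mL and −0.45 at 300 µg/mL and did not pass. Its values overlapped with control MEFs at both doses, and mouse 4 at 300 µg/mL (23.1 CPM) lay above its control sample (21.7 CPM). The fits put Sirt1 below control MEFs in 18 of 18 alternatives of each dose, which reuse the same samples. It was called in 2 of these alternatives at each dose, both with the offsets, where the adjusted p was 0.0305 and 0.0277 without and 0.0474 and 0.0436 with the mouse as a block. No overlap with control MEFs was found for 2 members at 100 µg/mL and 3 at 300 µg/mL, against 48.3% and 43.3% of all genes. Sirt6 had log2 fold changes of −0.31 (adjusted p = 0.448) and −0.25 (adjusted p = 0.561) against control MEFs.
Between the doses edgeR and DESeq2 called 0 of 7 members, against 0.00665% of all genes, and 0 members had an unadjusted p under 0.05. The log2 fold change of 300 against 100 µg/mL ran from 0.042 (Sirt1) to 0.64 (Sirt4, adjusted p = 0.97, SE 0.40, 95% interval −0.21 to 1.49), above 0 for 7 of 7 members. The median was 0.26 over the members and 0.075 over all genes tested, and Sirt1 and Sirt6 (0.054) lay below the latter. The sign of Sirt1 and Sirt6 turned in 11 and 8 of 18 alternatives and that of Sirt7 in 1. Sirt5 was the member without overlap of the doses, against 7.54% of all genes, with a log2 fold change of 0.37 (adjusted p = 0.97, SE 0.28).

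The family's RNA as a sum gave another view, which depended on the scale. The summed TPM was 115.1, 124.3 and 125.2 in control mice 4, 5 and 6 and 172.4, 165.2 and 163.0 in senescent MEFs. It was 179.8, 194.3 and 193.2 at 100 µg/mL and 209.7, 204.6 and 202.2 at 300 µg/mL. The groups did not overlap in this order. The difference was 45.3 TPM between senescent and control, 22.3 TPM between 100 µg/mL and senescent and 38.6 TPM between 300 µg/mL and senescent MEFs, each with p = 0.1 in a two-sided exact permutation test, the smallest that 3 against 3 samples allow. The TPM of all tested genes shifted too, by a median log2 difference of 0.06, 0.342 and 0.26 in these comparisons, against 0.416, 0.214 and 0.327 for the members. Of the 7 members 5, 2 and 5 were above the all-gene median. The members' median at 300 µg/mL lay close to that of all genes, well inside their quartiles of −0.0665 and 0.606, and no test set the members against all genes. On the TMM scale the summed CPM was 150.2 ± 9.41 in control, 187.4 ± 18 in senescent, 155.8 ± 20.2 at 100 µg/mL and 184.0 ± 24.9 at 300 µg/mL (SD, n = 3).

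**Figure D3:**
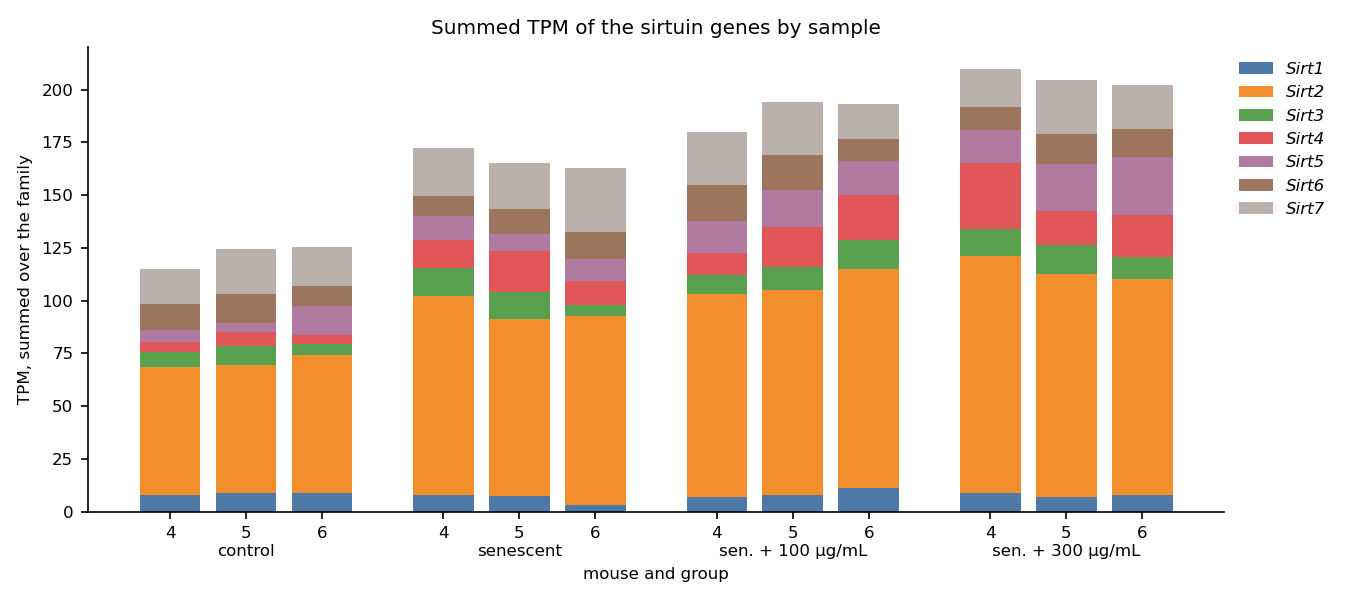
Summed TPM of the 7 sirtuin genes (y axis, from 0) for each mouse and group, with the colours giving each gene's part. Sirt2 makes up the largest part of every bar, and the bars rise from 115.1 to 125.2 TPM in control to 202.2 to 209.7 TPM at 300 µg/mL.

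Sirt2 took 51.2 ± 2.30% of the family's TPM in control, 53.4 ± 2.42% in senescent, 52.4 ± 1.96% in 100 µg/mL and 52.0 ± 1.48% in 300 µg/mL samples (SD, n = 3). The share of Sirt4 was 4.19 ± 0.756% in control and 8.84 ± 2.43% in senescent MEFs, and that of Sirt1 7.04 ± 0.259% and 3.68 ± 1.52%, both without overlap. Each of these shares had p = 0.1 in the exact permutation test, and adjusted over 21 shares and comparisons p was 0.42. Sirt5 made up 5.99 ± 0.905% in senescent, 8.52 ± 0.416% in 100 µg/mL and 10.5 ± 3.04% in 300 µg/mL samples, also with p = 0.1 (0.42 adjusted, exact permutation test) against senescent MEFs at each dose. The share of Sirt7 was 14.9 ± 3.14% in senescent and 10.5 ± 1.94% in 300 µg/mL samples, lower without overlap, with the same p of 0.1 (0.42 adjusted, exact permutation test).
TPM depend on the transcript length that RSEM assigns to a gene in each library, and this length varied most in Sirt5 and Sirt4. In Sirt5 it was 712 bases in control mouse 6 and 1444 and 1343 bases in control mice 4 and 5. The same control mouse 6 had 13.5 TPM of Sirt5, above the 8.17 to 11.3 TPM of the senescent samples, while its CPM of 4.84 was in the control range. In Sirt4 the length ran from 745 bases (control mouse 6) to 1425 bases (mouse 4 at 100 µg/mL), a ratio of 1.91, and in Sirt2 from 1726 to 1790 bases, a ratio of 1.04. The rise of Sirt5 in senescence was called from counts and not from TPM (adjusted p = 0.511 in limma), and that of Sirt4 from both (adjusted p = 0.0192 in limma).

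**Figure D4:**
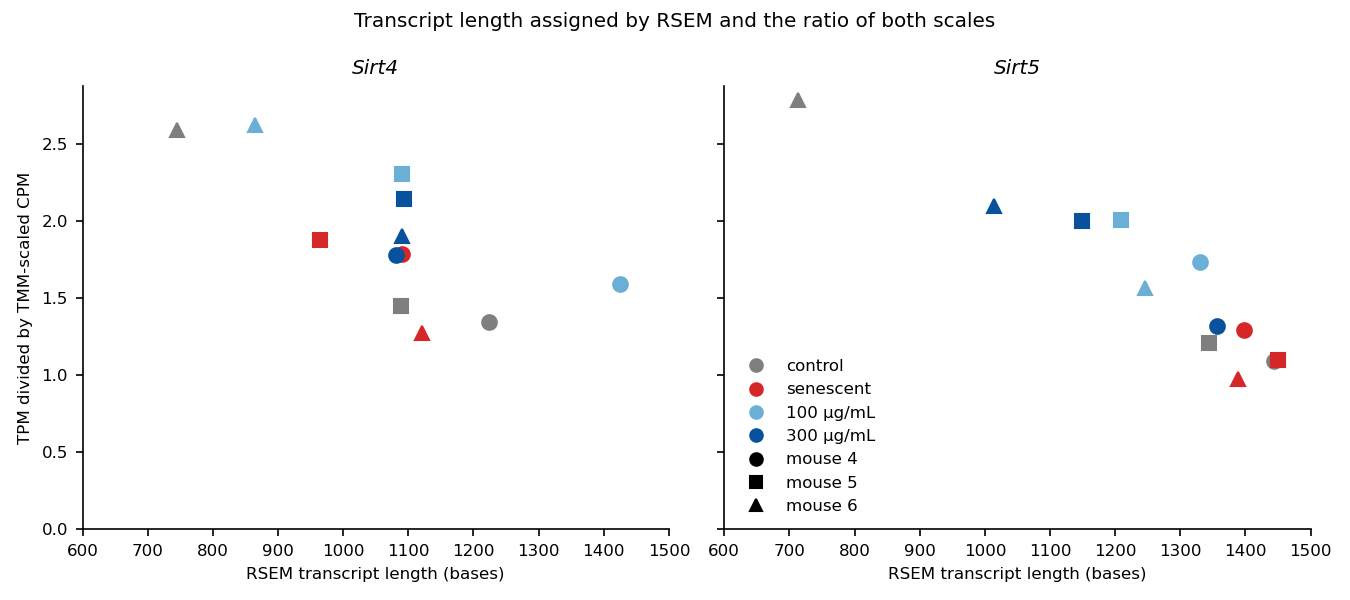
Ratio of TPM to TMM-scaled CPM (y axis) against the transcript length that RSEM assigned (x axis, bases) for Sirt4 and Sirt5, with each point 1 of the 12 samples, coloured by group and shaped by mouse. Control mouse 6 lies at the short end for both genes, at 745 bases for Sirt4 and 712 bases for Sirt5.

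Over the 12 samples the members did not vary as a block. The highest Pearson correlations of log2 CPM were those of Sirt4 with Sirt5 (0.799), Sirt2 with Sirt5 (0.715) and Sirt2 with Sirt4 (0.686). The lowest were those of Sirt1 with Sirt5 (−0.519) and Sirt1 with Sirt7 (−0.471). Sirt6 correlated best with Sirt7 (0.592) and was at −0.439 with Sirt5. These values describe samples that share mice, libraries and the difference between groups, and carry no test.
Among genes with a mean of at least 10 CPM, the closest in pattern over the 12 samples were Txlna (r = 0.962) and Gm45234 (0.954) for Sirt1, and Homer3 (0.981) and Sdf4 (0.965) for Sirt2. For the mitochondrial members they were Kics2 (0.946) and Zfyve9 (0.931) for Sirt3, Gnptg (0.963) and Zbtb24 (0.957) for Sirt4, and Fam131a (0.981) and Scarf2 (0.969) for Sirt5. For Sirt6 they were Polr2d (0.907) and Eif3d (0.907), and for Sirt7 Igfbp7 (0.949) and Hspb1 (0.936). Each pair was picked as the highest among all such genes, so the search itself favours high values, and these correlations carry no test.

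The genes around the sirtuins were read from 6 lists of 93 genes, with 84 genes tested. Among these 19 passed in senescent MEFs, 9 higher and 10 lower, or 22.6%, against 11.7% of all genes. The 7 senescence markers, which are known for changing in senescence, gave 6 of these calls, and without them 13 of 77 genes passed, or 16.9%. All lists were chosen with earlier results of these data known, so their shares cannot show an excess over all genes.
Of the 11 tested genes for the synthesis of NAD+, the substrate of the sirtuins, its transport and its exchange with NADP+, 2 rose. Naprt, which makes the NAD+ precursor from nicotinic acid, rose from 2.33 ± 0.411 to 5.84 ± 0.760 CPM (log2 fold change 1.32, adjusted p = 0.0238, SE 0.34), and Nmnat2, a synthase of NAD+ itself, rose with a log2 fold change of 1.27 (adjusted p = 0.027, SE 0.34). Nampt, the rate-limiting enzyme of the salvage pathway, was at 10.4 CPM in control and 8.26 CPM in senescent MEFs (adjusted p = 0.723). Of 17 genes that use NAD+ or clear nicotinamide, Parp3, an ADP-ribosyltransferase of the DNA damage response, rose (0.86, adjusted p = 0.00424, SE 0.16), and Parp1, the main poly(ADP-ribose) polymerase, was at 21.5 and 6.93 CPM (adjusted p = 0.0756).
Of 11 zinc-dependent histone deacetylases, which remove acetyl groups without NAD+, Hdac9 (log2 fold change 3.59, adjusted p = 0.00143, SE 0.58) and Hdac11 (2.41, adjusted p = 0.000803, SE 0.36) rose. Hdac9 was low in control MEFs, at 0.367 ± 0.211 CPM.
Of 15 regulators and partners of sirtuins, Mdm2, the ubiquitin ligase of p53, rose (1.53, adjusted p = 0.00174, SE 0.25) and 3 fell. Those were Senp1, a SUMO protease that acts on SIRT1 (−1.21, adjusted p = 0.00626, SE 0.25), Smarca5, a chromatin remodeller that SIRT6 brings to DNA breaks (−0.83, adjusted p = 0.046, SE 0.25), and Elavl1, which binds and stabilises Sirt1 mRNA (−0.70, adjusted p = 0.0174, SE 0.17).
Of 23 protein and gene targets of sirtuins 4 fell. Idh2, a mitochondrial enzyme deacetylated by SIRT3, fell from 110.4 ± 22.3 to 24 ± 8.97 CPM (log2 fold change −2.20, adjusted p = 0.000381, SE 0.29). Polr1b (−1.49, adjusted p = 0.00614, SE 0.30) and Polr1a (−0.97, adjusted p = 0.0082, SE 0.21) encode subunits of RNA polymerase I, on which SIRT7 acts. The remaining gene, Trp53 (−0.77, adjusted p = 0.0111), was outside the rule for naming and was added after its value was seen.
Of 7 senescence markers 3 rose (Cdkn1a, Cdkn2a and Glb1) and 3 fell (Lmnb1, Hmgb2 and Mki67), and Cdkn1a had a log2 fold change of 1.82 (adjusted p = 6.79e-05, SE 0.18).

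**Figure D5:**
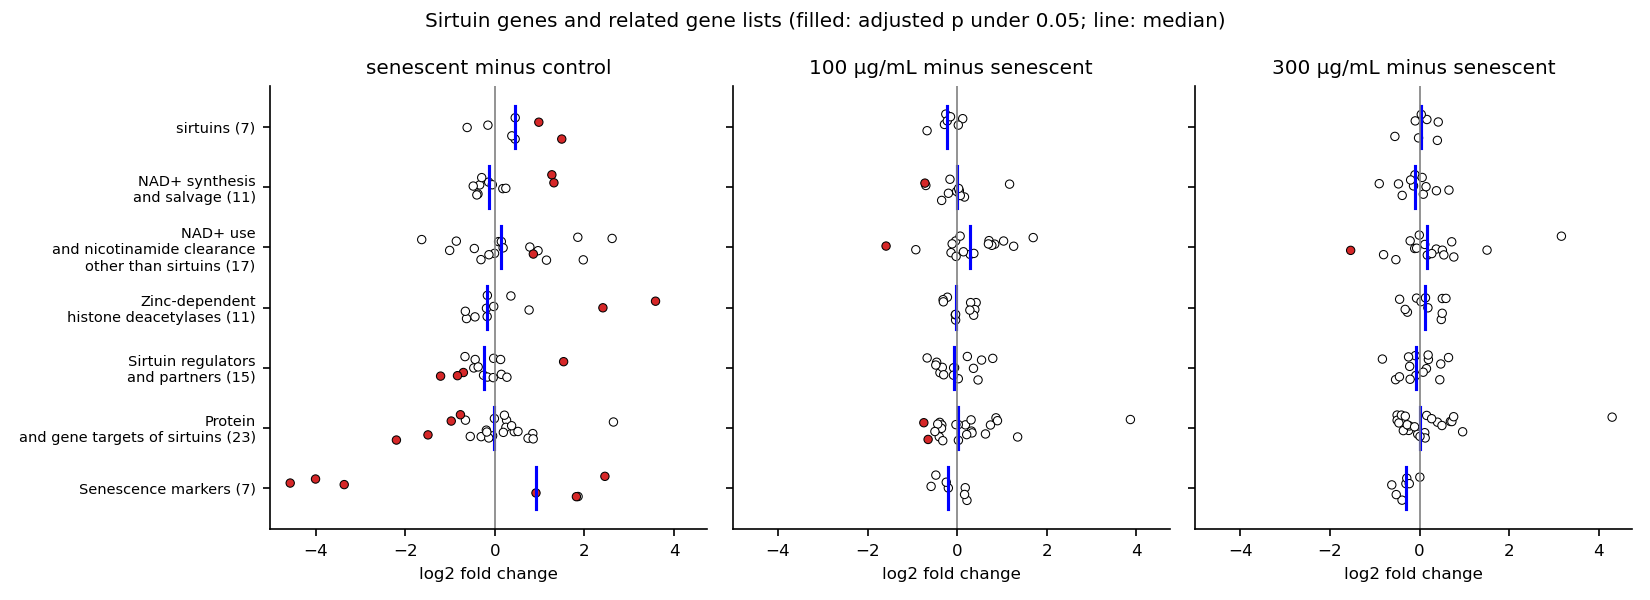
Log2 fold changes (x axis) of the sirtuins and of 6 related gene lists (rows, with the number of genes tested) in senescent against control MEFs and in each Fucoidan-FV group against senescent MEFs. Filled points passed an adjusted p under 0.05 and blue lines are medians, and 19 of the 84 list genes are filled in senescence, 4 at 100 µg/mL and 1 at 300 µg/mL.

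With Fucoidan-FV 4 of the 84 list genes passed at 100 µg/mL, all lower, or 4.76%, against 4.02% of all genes, and 21 had an unadjusted p under 0.05. Nadk, the cytosolic kinase that turns NAD+ into NADP+, fell from 275.3 ± 31.8 CPM in senescent MEFs to 167.1 ± 15 CPM (log2 fold change −0.72, adjusted p = 0.0387, SE 0.17). Ldha (−0.74, adjusted p = 0.0482, SE 0.19) and Slc2a1 (−0.65, adjusted p = 0.0355, SE 0.15) act in glycolysis and glucose uptake and were the called genes among the 23 targets of sirtuins, of which 13 had log2 fold changes above 0 and 10 below, with a median of 0.027. Other genes of glucose use in that list lay on the other side, with Hif1a at 0.90 (adjusted p = 0.138), Pdk1 at 0.74 (adjusted p = 0.2) and Pfkfb3 at 0.31 (adjusted p = 0.703), and were added here after their values were seen. Enpp1, a cell-surface enzyme that splits NAD+ and ATP, fell from 50.1 ± 6.39 to 16.7 ± 5.52 CPM (−1.59, adjusted p = 0.0153, SE 0.31). It was the list gene called at 300 µg/mL as well, at 17.3 ± 4.75 CPM (−1.54, adjusted p = 0.0252, SE 0.31), where 1.19% of the list genes and 1.9% of all genes passed and 13 list genes had an unadjusted p under 0.05.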

How the data were processed

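RNA of 13 libraries was prepared with a stranded total RNA kit. According to the submitters' processing notes, the authors used FastQC 0.12.1, Trimmomatic, STAR 2.7.11b with GRCm39 and RSEM 1.3.1. The deposited expected counts are RSEM's estimated counts per gene, without normalization, and the deposited TPM and FPKM are RSEM's values per length and library. A deposited table of all libraries held the same expected counts (largest difference 0). FPKM were not used. Of the 57010 gene IDs 56310 matched the GENCODE annotation.

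Expected counts were rounded, libraries 5(1) and 5(2) summed, and genes kept by filterByExpr (minimum count 10, minimum total 15). The tests used edgeR 4.0.16 under R 4.3.3 (TMM factors, quasi-likelihood test, 1 fit over 4 groups, Benjamini-Hochberg over 15034 genes). The test was checked on simulated counts for senescent against control MEFs only. Most changes of 1.5-fold and 2-fold and many of 4-fold were not called there, so a member that did not pass may still have changed. Intervals of folds are from this fit. TPM served for levels between genes, and as log2(TPM + 0.5) for limma 3.58.1, where fold changes of low genes are understated. Other alternatives were DESeq2 1.42.0, RLE factors, other filters (1 count in total, or 10 counts in every sample), other uses of libraries 5(1) and 5(2), only the groups compared, the mouse as a block, offsets for single-transcript sequence, length and GC content, and each mouse left out.

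The mouse number pairs samples by the labels. Deviations from the group means correlated between same-numbered samples with r from −0.204 to 0.425 (18 pairs, median −0.006, 8 above 0.1). Control libraries differed beyond sampling noise, with a chi-square per gene of 145.9 between 5(1) and 5(2) and 53.2 to 153.7 between other pairs, so none was a duplicate. Shares were compared with exact permutation tests. The members and gene lists were chosen with earlier results of these data known. All members were named, and of each list up to 3 called genes per direction with the largest change, besides values given as context for Nampt, Parp1, Trp53, Hif1a, Pdk1 and Pfkfb3. For each member the 2 genes with the highest correlation of log2 CPM (prior count 2) were named. Protein sequences were not used here.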

Additional observations from a re-analysis of the deposited data

How the results depend on the processing

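Of the values recomputed under the alternatives, 277 counts and medians of the family stayed near those given above and 47 moved, and of the values of single members and shares 757 kept their side of the threshold or stayed within the spread, 19 lost a call, 10 gained a call, 3 moved and 2 turned sign with values beyond 1 SE in both fits. Counting every change of sign, 57 of 756 log2 fold changes of members turned, among them 15 for 100 µg/mL and 17 for 300 µg/mL against senescent MEFs, 20 between the doses and 0 with a call. For senescent against control MEFs the count of members called was 0 with only the groups compared, and 1 without a filter, with library 5(2) alone and with the mouse as a block, which took the call from Sirt5 (adjusted p = 0.0562) and changed no other call of a member by adjusted p. It was 3 with the offsets, Sirt1 being added (2 with the block as well), and on log2 TPM the 2 called were Sirt2 and Sirt4. With the limit on the fold that count was 0 with only the groups compared, and 2 with both libraries of control mouse 5 as separate samples, with library 5(1) alone and with the offsets, with or without the block. Leaving out 1 mouse gave 0 to 2 members by either rule, and a median log2 fold change of 0.35 to 0.50. The median was 0.36 with library 5(1) alone and with the offsets.

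For 100 µg/mL against senescent MEFs the median was −0.13 with RLE factors, −0.13 with DESeq2, −0.14 without a filter, −0.11 with 10 counts in every sample, −0.12 with only the groups compared, −0.047 with the offsets, −0.016 with the offsets and the mouse as a block, and 0.21 on log2 TPM, where Sirt2 turned to 0.15. It ran from −0.26 to 0.032 without 1 mouse. For 300 µg/mL against senescent MEFs it was 0.33 on log2 TPM and −0.064 to 0.33 without 1 mouse. Against control MEFs the medians on log2 TPM were 0.63 at 100 µg/mL, where Sirt6 turned to 0.29, and 0.74 at 300 µg/mL, and −0.13 to 0.30 and 0.31 to 0.52 without 1 mouse. At 100 µg/mL against control MEFs 1 member was called by adjusted p without a filter, and 3 with the offsets, with or without the block (Sirt1 added), and on log2 TPM (Sirt2 added). At 300 µg/mL against control MEFs 3 were called in these fits likewise, and with 10 counts in every sample and without control mouse 6 (Sirt2 added). At 100 µg/mL against control MEFs the count was 1 with the limit on the fold without a filter, with library 5(2) alone and with the offsets, with or without the block. Without 1 mouse of these groups the count at 100 µg/mL was 0 to 2 by either rule. The causes of these shifts were not tested. Counts as low as 36 limit the precision of Sirt4, and 3 mice per group that of every member.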
